A study of Prunus avium with 21 samples.

Results

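A late group of 141 transcripts of sweet cherry (Prunus avium) flower buds was described here. These transcripts stood higher in hydrogen cyanamide-treated than in water-treated (control) buds at 6 dat (days after treatment), while their mean difference at 1 dat stayed under 1 on the log2 scale. They were taken from 112043 assembled transcripts of 48840 assembled genes by a rule on FPKM, the fragments mapped per kilobase of transcript, scaled to the size of the library, read as log2(FPKM + 0.5). The mean of the treated libraries minus the mean of the control libraries had to be below 1 at 1 dat and at least 2 at 6 dat. The lowest treated library also had to lie above the highest control library at 6 dat, and treated buds had to average at least 5 FPKM at 6 dat. A difference of 2 or more at 6 dat was reached by 587 transcripts, of which 516 had non-overlapping groups, 353 of these also had the required level, and 141 of these also met the condition at 1 dat. Identifiers with 5 given prefixes were to be left out, which removed no further transcript. The members were thus chosen by the measured values at 1 and 6 dat, so these are given as a description with no test, and members were tested only with the libraries of 3 dat and of day 0.

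The buds came from 3 neighbouring orchard trees with the numbers 4, 5 and 6, all of the cultivar 'Burlat', whose rootstock was Saint Lucie GF 64. Branches were cut at 720 chill units, when the requirement of the cultivar is 934 chill units, and sprayed either with Dormex at 2% in deionized water, a product holding hydrogen cyanamide at 520 g/L, or with deionized water alone. Treated and control branches stood in tap water in the same warm chamber with constant light, and buds were collected from both at 1, 3, and 6 dat. Untreated buds of day 0 had not been forced, and they were taken in the evening, whereas all later buds were taken in the morning. By the labels each tree gave 1 library, from the pooled buds of a branch, to each of the 7 groups, 21 in all. The material thus was detached branches of 1 cultivar, and a bud holds scales and several flowers, so that fewer cells of a type and less RNA per cell cannot be told apart.

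The table held FPKM and no counts, so the depth behind each value was unknown. FPKM summed to 671152 to 760090 per library, and libraries of a group correlated at r = 0.90 to 0.92 on the log2(FPKM + 0.5) scale across transcripts. Transcripts described as flower organ identity genes (19 that are not members) summed to 136 to 438 FPKM in every library, and the anther and pollen list (9 transcripts) to 0.796 to 22.9 FPKM, whereas only 2 transcripts stood for green tissue (5.11 to 47.6 FPKM). Rescaling the libraries by median ratios moved the difference of treated minus control buds by 0.14 at 1 dat, 0.07 at 3 dat and 0.16 at 6 dat for all transcripts alike (log2). The control library of tree 6 at 1 dat was looked at on its own. There 328 transcripts stood at 2 FPKM or more and at 10 or more times the level of trees 4 and 5. Their sums of 1353 FPKM against 21.6 and 18.9 FPKM were set apart by that limit. In day 0 libraries the 328 summed to 354 to 681 FPKM. No such count was made for another library, so whether 328 is unusual is not known. Of the 328, 6 were members, which are described near the end. Without this library the rule gave 143 transcripts, of which 136 were among the 141.

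Flower buds of temperate fruit trees pass the winter in endodormancy, a state in which they do not grow out even in warmth until enough chilling has been received. Hydrogen cyanamide is a chemical that growers spray to replace missing chilling. When buds resume growth, cell walls are loosened and rebuilt, callose (a 1,3-beta-glucan that can plug the channels between cells) is removed, and proteins that are also known from defence against pathogens are commonly made.

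Of the 141 members, 61 carried a description of their own in the study's tables and 20 more shared an assembled gene with a described isoform, whereas 60 had no description. Among the 81 described ones, 20 were named uncharacterized or hypothetical, which left 61 with a named protein. The members belonged to 131 assembled genes. Their mean level in treated buds at 6 dat ran from 5.01 to 3653 FPKM with a median of 11.8 FPKM, and 17 members reached 100 FPKM while 56 stayed under 10 FPKM. In control buds at 6 dat the median level was 1.78 FPKM, and 41 members were under 1 FPKM. The difference at 6 dat, which the rule bounded below, had a median of 2.48 and went up to 4.40 (log2), beside a median of 0.17 at 1 dat. Over all transcripts tested, 0.913% were called higher and 0.495% lower at 6 dat and 2.93% higher at 1 dat, which is given as background only because the rule used both days.

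**Figure D1:**
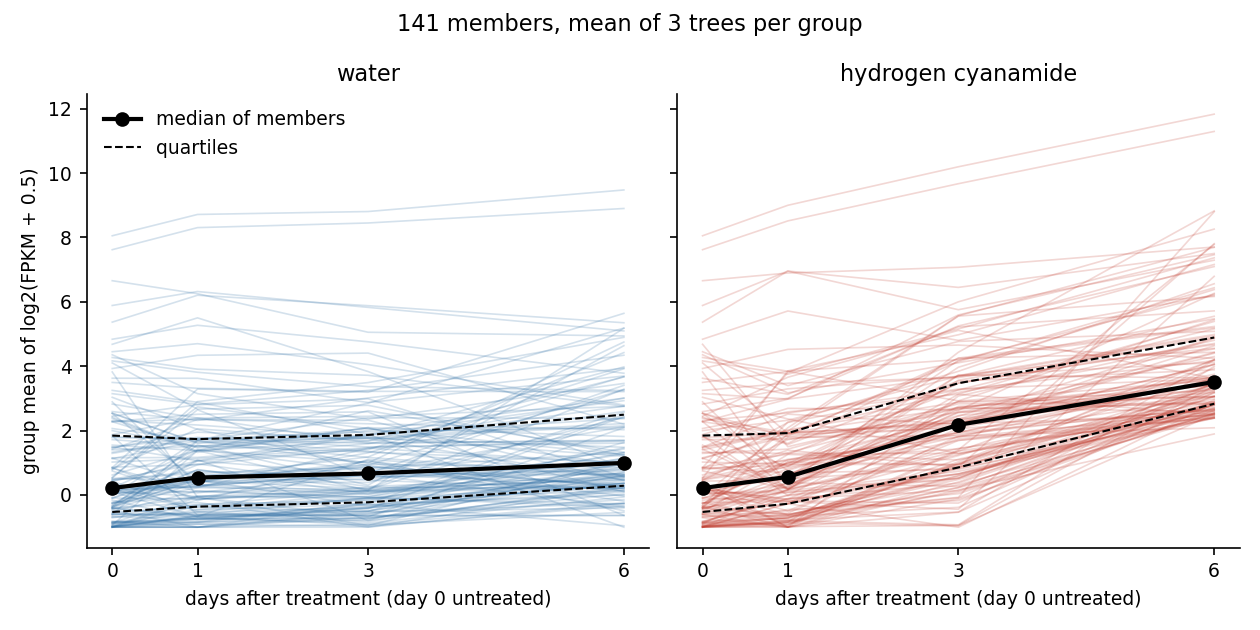
Group means of log2(FPKM + 0.5) of the 141 members (thin lines, mean of 3 trees) over days after treatment, in control buds (left) and hydrogen cyanamide-treated buds (right), both starting from the untreated buds of day 0. Black lines are the median and the quartiles of the members, and the median climbs from 0.22 at day 0 to 3.51 in treated and to 1.00 in control buds of 6 dat.

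Against the untreated buds of day 0, treated buds at 6 dat were higher by 1 or more (log2) in 131 members, within 1 in 9, and lower in 1. Control buds at 6 dat were higher by 1 or more in 53 members, within 1 in 70, and lower in 18. Thus 53 members rose past 1 in both treatments and further in treated buds, 70 moved past 1 in treated buds alone, and 8 moved past 1 upward in treated and downward in control buds. In 9 members treated buds stayed near the day 0 level while control buds fell below it. The group mean was highest in treated buds of 6 dat for 131 members, in treated buds of 3 dat for 5, at day 0 for 3, and in control buds for 2 (1 at 1 dat and 1 at 3 dat). These groupings are counts of group means and no tests, and the rule fixed part of them. With a difference of at least 2 at 6 dat, treated buds had to stand more than 1 above day 0 unless control buds were lower by 1 or more. The counts therefore describe mainly the course of control buds.

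Buds of 3 dat, which the rule did not use, showed whether the members had already moved. Averaged over the 6 libraries, 127 members reached 0.5 FPKM and were tested, and of these 40 (31.5%) were called higher in treated buds and 0 lower (limma, Benjamini-Hochberg adjusted p at most 0.05 and a difference of at least 1), against 1.96% called higher among all 63205 transcripts tested. At an unadjusted p of at most 0.05, 77 members were higher and 1 lower. In 30 of the 127 the mean of control buds was under 0.5 FPKM, so they passed the filter through treated buds, and 32 of the 40 calls had control buds at or above that level. The median difference at 3 dat was 1.45 over the members tested and -0.04 over all transcripts tested, and it was 1.32 over all 141 members. The treated libraries lay above the control libraries without overlap in 83 members (58.9%), against 13.7% of the transcripts tested. They lay below them in 1 member, against 13.2% of the transcripts tested. At 3 dat other lists moved as well. The green tissue pair summed to 15.4 to 29.4 FPKM in treated and 5.11 to 7.27 FPKM in control buds, and 4 of the 9 anther and pollen transcripts were called higher and 0 lower, although their sums overlapped (10.03 to 22.9 FPKM and 2.46 to 13.1 FPKM). Most of the 9 are isoforms that share an assembled gene with another of them, so these calls do not count separate genes. Their part in the difference of the members was not tested.

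**Figure D2:**
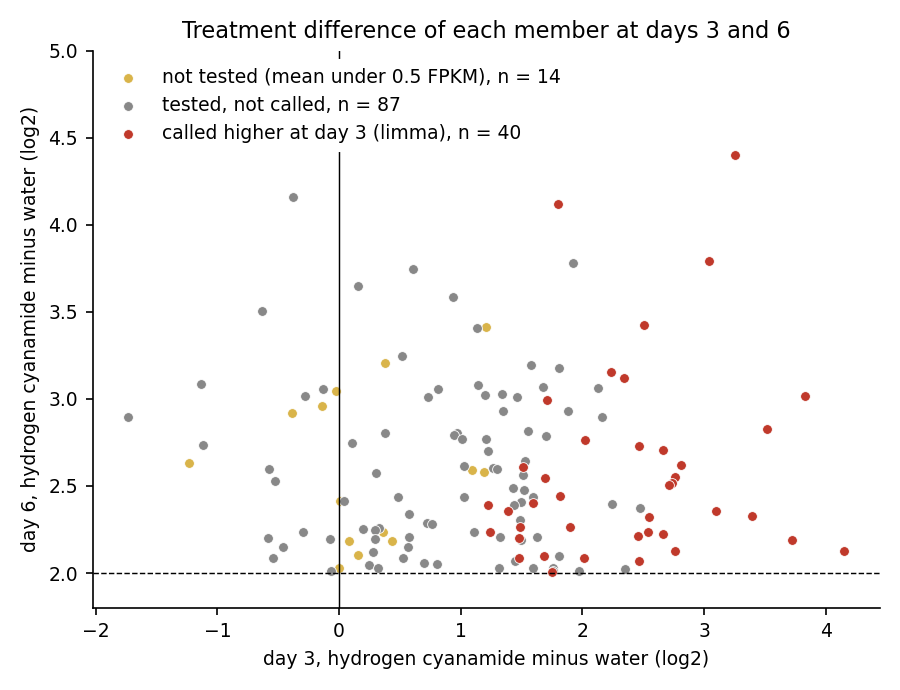
Difference of treated minus control buds for each member on the log2(FPKM + 0.5) scale at 3 dat (horizontal) and at 6 dat (vertical), with colours for the limma call at 3 dat. The dashed line is the limit of 2 that the rule set at 6 dat, and the 40 members called higher at 3 dat all lie to the right of 1.

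Among the members, 87 differed by more than 1 at 3 dat, 30 by more than 2 and 8 by more than 3 (log2), while 50 were within 1 of 0 and 4 were below -1. From 3 to 6 dat treated buds went up by a median of 1.73, by 1 or more in 103 members, and went down in 5. In 113 members treated buds at 3 dat were already above the mean of control buds at 6 dat. Members therefore ranged from those that stood high at 3 dat and changed little afterwards to those that were at the control level at 3 dat and appeared only in the libraries of 6 dat. The count of 40 depended on single libraries. It was 13 without the treated library of tree 4, 18 without that of tree 5, 18 without the control library of tree 4 and 15 without that of tree 6, and 13 members were called in all 6 fits that left out a library. With the tree as a block 30 members were called higher, 28 of them among the 40.

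Compared with day 0, control buds at 3 dat had 3 members called higher and 6 lower of 98 tested (limma, Benjamini-Hochberg), against 4.39% and 1.71% of all transcripts tested. Treated buds at 3 dat had 54 members called higher (43.5%) and 2 lower of 124 tested, against 7.99% and 3.24% of all transcripts tested. In 39 of the 124 the mean of day 0 buds was under 0.5 FPKM, so they passed the filter through treated buds. Of the 54 calls, 33 had day 0 buds at or above that level. In control buds 12 of the 98 passed in the same way, and 2 of the 3 higher calls had day 0 buds at or above that level. The median difference from day 0 was 0.13 over the members tested in control buds, beside 0.18 over all transcripts tested, and 1.49 in treated buds, beside 0.16. These comparisons share the day 0 libraries with each other, and day 0 buds had been neither sprayed nor forced, so that these conditions and the time of day cannot be told apart. Rescaling by median ratios, added after the data were seen, lowered all differences from day 0 by 0.28 in control and 0.20 in treated buds, and left 3 and 8 calls in control buds and 48 and 2 in treated buds.

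Structural proteins of the cell wall formed a group of 6 members by their descriptions, and 4 of the 6 were called higher at 3 dat. The group, like the other groups by role, was put together after descriptions and values were seen. Counts called by role stand beside 31.5% of all members tested and 1.96% of all transcripts tested. For wall polysaccharide enzymes, defence proteins, receptors, metabolic enzymes and signalling proteins, described below, the share was 22.2% to 37.5%, which is near that of all members. Summed over the 6, control buds held 12.6 to 26.6 FPKM at 3 dat and 54.3 to 70.8 FPKM at 6 dat, whereas treated buds held 106 to 121 FPKM and 370 to 526 FPKM. Day 0 buds held 9.33 to 13.4 FPKM, and at 1 dat control buds (10.1 to 17.4 FPKM) and treated buds (13.7 to 20.3 FPKM) overlapped.

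The extensin-3-like transcript (TR5955|c1_g1_i1) encodes a member of the extensins, hydroxyproline-rich glycoproteins that are cross-linked into the wall. In trees 4, 5 and 6 it stood at 9.47, 2.73 and 6.29 FPKM at day 0, at 8.08, 4.47 and 2.4 FPKM in control buds of 1 dat, and at 6.17, 7.67 and 9.04 FPKM in treated buds of 1 dat. At 3 dat it stood at 8.82, 8.33 and 5.91 FPKM in control and at 32.0, 53.6 and 31.0 FPKM in treated buds, a difference of 2.24 ± 0.25 (log2, SE, limma adjusted p = 0.00908). At 6 dat it stood at 20.8, 18.9 and 8.28 FPKM in control and at 106, 171 and 139 FPKM in treated buds. All treated libraries thus lay above all control libraries at 3 dat but not at 1 dat, and at 6 dat the rule required this. An undescribed transcript of the same assembly component, TR5955|c0_g1_i1, had nearly the same course, with 8.15, 9.93 and 9.04 FPKM in control and 47.1, 55.4 and 41.8 FPKM in treated buds of 3 dat (2.34 ± 0.15, SE, limma adjusted p = 0.00421), and 122, 203 and 221 FPKM in treated buds of 6 dat. Where reads fit both, the estimate divides them, so the pair may not be independent.

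Glycine-rich wall proteins are deposited mainly in the walls of vascular tissue. The transcript described as glycine-rich cell wall structural protein 1.8-like (TR1397|c0_g1_i1) was at 0.580, 0.409 and 0.411 FPKM in control and at 4.67, 3.81 and 6.81 FPKM in treated buds of 3 dat (2.50 ± 0.32, SE, limma adjusted p = 0.0113), and at 23.9, 24.2 and 42.9 FPKM in treated buds of 6 dat against 1.51, 1.79 and 4.06 FPKM. TR29376|c0_g1_i1 (1.0-like, named after its values were seen) differed by being called higher than day 0 in control buds as well. It went from 0.457, 0.179 and 0.981 FPKM at day 0 to 5.26, 10.7 and 5.36 FPKM in control and 61.5, 27.3 and 61.3 FPKM in treated buds of 3 dat, and to 37.3, 26.4 and 47.0 FPKM and 201, 169 and 259 FPKM at 6 dat. Its difference at 3 dat was 2.71 ± 0.38 (SE, limma adjusted p = 0.0147). A further isoform with a glycine-rich description, TR38996|c0_g1_i3, was not called at 3 dat (0.81 ± 0.63, SE, limma adjusted p = 0.533), and stood at 16.9, 16.8 and 15.0 FPKM in treated and 1.63, 1.6 and 1.32 FPKM in control buds of 6 dat.

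The transcript of the 14 kDa proline-rich protein DC2.15-like (TR26636|c6_g1_i8), named after a carrot protein, stood at 1.07, 0.560 and 0.363 FPKM in control and at 16.8, 9.91 and 8.76 FPKM in treated buds of 3 dat (3.39 ± 0.35, SE, limma adjusted p = 0.00781). At 6 dat it was at 7.27, 4.16 and 5.29 FPKM in control and at 15.9, 28.7 and 54.4 FPKM in treated buds. It was the only wall protein member that ran against its own gene, since the sum of the 10 isoforms of the gene was lower in treated buds at 6 dat (-1.14). The putative cell wall protein TR18605|c0_g1_i1 had treated libraries far apart, with 5.96, 60.1 and 15.4 FPKM in treated and 0.815, 1.5 and 4.83 FPKM in control buds of 6 dat, and was not called at 3 dat (limma adjusted p = 0.445).

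Transcripts described as heterogeneous nuclear ribonucleoprotein A3, a name of glycine-rich RNA-binding proteins, made up 4 members of 3 assembled genes, and 2 of the 3 that could be tested were called higher at 3 dat. TR12534|c7_g6_i3 rose early in both treatments. It stood at 0.148, 0.329 and 0.345 FPKM at day 0, at 1.64, 2.50 and 2.43 FPKM in control and 18.0, 20.1 and 14.04 FPKM in treated buds of 3 dat, and at 13.8, 16.6 and 13.7 FPKM and 108, 73.1 and 81.2 FPKM at 6 dat. The difference at 3 dat was 2.73 ± 0.23 (SE, limma adjusted p = 0.00762), and treated buds of 3 dat overlapped with control buds of 6 dat. Its higher level in control buds of 3 dat against day 0 was called (1.79, limma adjusted p = 0.0228) but not with trees blocked (adjusted p = 0.0516). TR12909|c1_g1_i7 was at 175, 62.1 and 76.2 FPKM in treated and 10.8, 14.3 and 11.7 FPKM in control buds of 6 dat. Its difference at 3 dat (2.16 ± 0.61, SE) was called only with the block (limma adjusted p = 0.0966 without and 0.024 with it). TR31677|c0_g1_i2 stayed at or below 1.08 FPKM in every library but those of treated buds at 6 dat, where it stood at 11.2, 7.17 and 6.21 FPKM.

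Enzymes of wall polysaccharides and their sugars gave 7 members, of which 2 were called higher at 3 dat, and 4 of the 7 were glucan endo-1,3-beta-glucosidases, which cut callose. The basic isoform-like TR7096|c0_g1_i2 was the most abundant, and its course in control buds went downward. It stood at 98.5, 101 and 102 FPKM at day 0, at 74.5, 72.1 and 81.0 FPKM in control buds of 1 dat, at 35.5, 32.2 and 30.7 FPKM at 3 dat and at 24.9, 37.7 and 29.4 FPKM at 6 dat. In treated buds it stood at 133, 115 and 109 FPKM at 1 dat, at 168, 154 and 93.1 FPKM at 3 dat and at 411, 155 and 142 FPKM at 6 dat. Treated buds were higher at 3 dat by 2.02 ± 0.21 (SE, limma adjusted p = 0.00818), whereas control buds of 3 dat fell by 1.601 from day 0 (limma adjusted p = 0.000587) and treated buds differed from day 0 by 0.42 (adjusted p = 0.231). The difference between treatments in this transcript thus held a decrease in control buds. Treated libraries lay above control libraries at 1 and 3 dat as well as at 6 dat, where the rule required it.

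The other basic isoform-like gene behaved differently, being nearly absent before 3 dat. TR24907|c0_g2_i2 stood at 0, 0.0278 and 0 FPKM at day 0 and at 0.18, 0.119 and 0 FPKM in control buds of 3 dat, but at 6.21, 3.30 and 4.07 FPKM in treated buds of 3 dat (3.04 ± 0.36, SE, limma adjusted p = 0.00983). At 6 dat it stood at 0.502, 1.55 and 1.24 FPKM in control and 43.7, 8.20 and 24.2 FPKM in treated buds. Its second isoform TR24907|c0_g2_i1, which is also a member, was at 13.5, 1.98 and 9.21 FPKM in treated buds of 6 dat and not called at 3 dat (limma adjusted p = 0.366). In both isoforms tree 5 was lowest and tree 4 highest among the treated libraries of 6 dat. TR27038|c0_g1_i10, described through another isoform of its gene, peaked at 3 dat, with 39.5, 61.3 and 16.3 FPKM in treated against 5.36, 15.9 and 4.69 FPKM in control buds, and 34.1, 5.12 and 9.20 FPKM against 4.14, 0.0120 and 0.857 FPKM at 6 dat. Its difference at 3 dat was 2.13 ± 0.57 (SE) and was called only with the tree as a block (limma adjusted p = 0.0854 without and 0.021 with it).

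Beyond the glucanases, 2 isoforms described as beta-galactosidase (TR11897|c1_g1_i10 and TR11897|c1_g1_i7), an enzyme that trims galactans of the wall, reached means of 7.73 and 5.20 FPKM in treated buds at 6 dat against 0.652 and 0.277 FPKM. An isoform of an L-arabinokinase-like gene (TR33784|c0_g1_i2), which returns arabinose to nucleotide sugar synthesis, stood at 52.3, 36.6 and 41.6 FPKM against 8.80, 7.21 and 10.6 FPKM at 6 dat. In none of these 3, named after their values were seen, was the difference at 3 dat called (limma adjusted p = 0.309, 0.482 and 0.893).

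**Figure D3:**
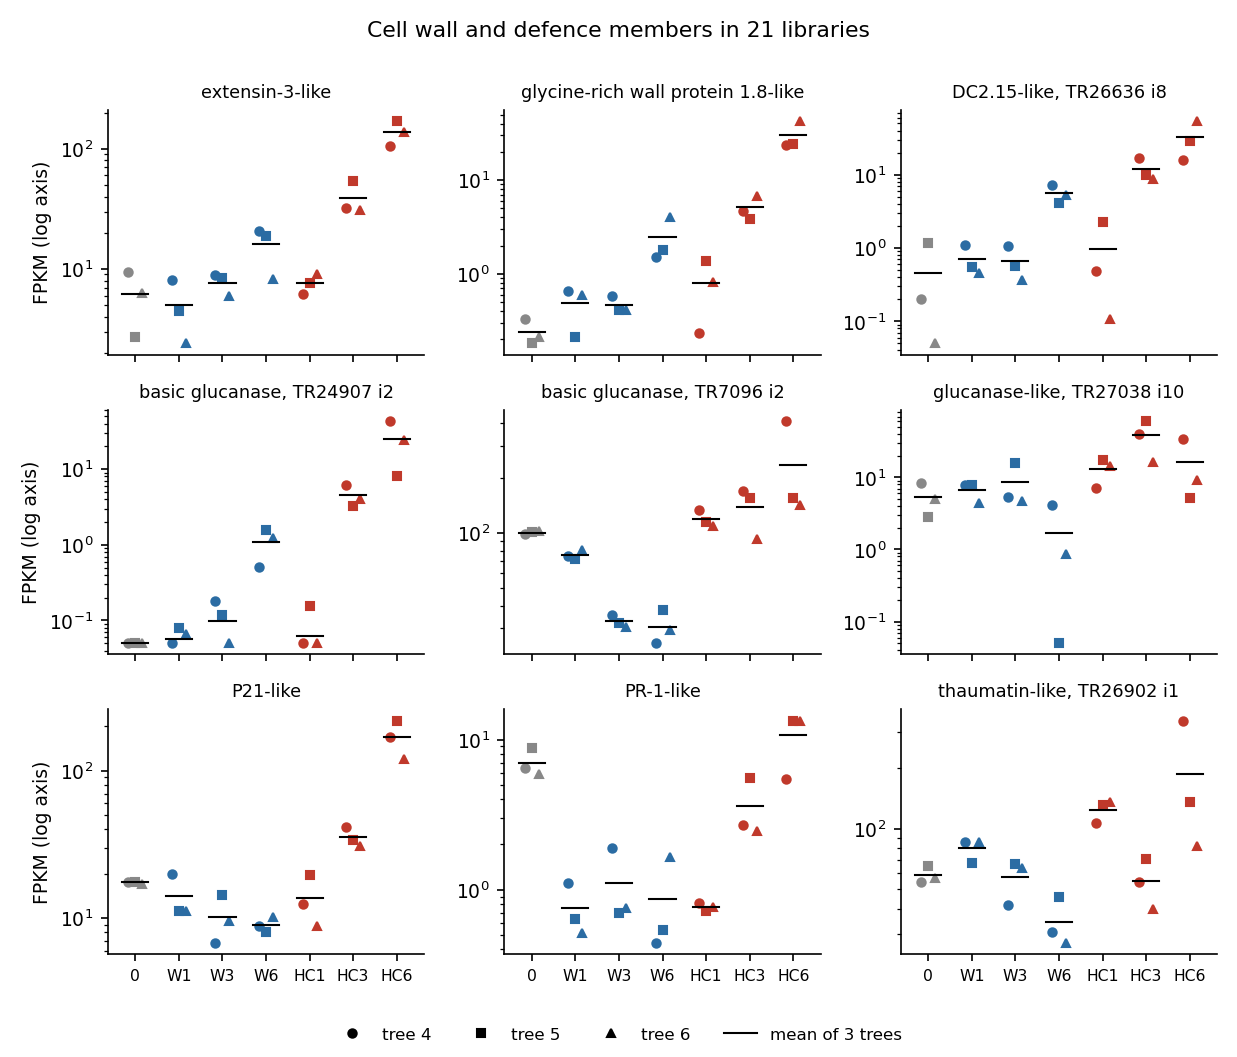
FPKM (log axis) of 9 members in the untreated buds of day 0 (0), control buds (W) and hydrogen cyanamide-treated buds (HC) of 1, 3 and 6 dat, with a symbol for each tree and a bar for the mean of 3 trees. Values under 0.05 FPKM are drawn at 0.05. The extensin-3-like transcript reaches 106 to 171 FPKM in treated buds of 6 dat, and TR7096 i2 falls in control buds while it stays above the day 0 level in treated buds, except for tree 6 at 3 dat.

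Defence proteins and protease inhibitors were the largest named group, with 13 members of 12 assembled genes, and 3 were called higher at 3 dat. Plants make many of these proteins during growth and organ development as well as after infection. Summed over the 13, treated buds were above control buds without overlap at 1 and 3 dat. At 6 dat the rule required this of each member. At 1 dat the sums were 305 to 351 FPKM against 190 to 236 FPKM, at 3 dat 197 to 311 FPKM against 148 to 177 FPKM, and at 6 dat 521 to 1037 FPKM against 102 to 134 FPKM. Such sums follow abundant members, like the PR-4-like and thaumatin-like transcripts given below, and do not describe each member. The P21-like and pathogenesis-related protein 1-like transcripts overlapped between treatments at 1 dat.

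The protein P21-like transcript (TR26377|c0_g3_i1), of the thaumatin family, had the second largest difference at 6 dat among described members (4.12). It stood at 17.7, 17.6 and 17.1 FPKM at day 0, at 19.8, 11.1 and 11.3 FPKM in control and 12.5, 19.7 and 8.83 FPKM in treated buds of 1 dat, and at 6.77, 14.4 and 9.60 FPKM in control and 41.2, 34.1 and 31.1 FPKM in treated buds of 3 dat. At 6 dat it stood at 8.82, 8.11 and 10.1 FPKM in control and at 170, 219 and 120 FPKM in treated buds. The difference at 3 dat was 1.79 ± 0.26 (SE, limma adjusted p = 0.016), and it was called in 3 of the 6 fits that left out a library. The thaumatin-like protein 1 gene had another time course, although its isoforms TR26902|c1_g1_i1 and TR26902|c1_g1_i2 were members too. The first stood at 106, 131 and 136 FPKM in treated buds of 1 dat against 85.9, 67.9 and 85.9 FPKM in control buds, at 54.2, 70.9 and 39.9 FPKM against 42.0, 66.9 and 63.6 FPKM at 3 dat (-0.07 ± 0.25, SE, limma adjusted p = 0.907), and at 343, 136 and 82.0 FPKM against 30.9, 45.7 and 27.1 FPKM at 6 dat. Treated and control buds therefore overlapped at 3 dat but not at 1 dat, nor at 6 dat, where the rule allowed no overlap.

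The pathogenesis-related protein 1-like transcript (TR36048|c0_g1_i1), of a family of small secreted proteins, fell early in both treatments and was back at the day 0 level in treated buds alone. It stood at 6.43, 8.81 and 5.85 FPKM at day 0, and at 1.12, 0.639 and 0.510 FPKM in control and 0.810, 0.720 and 0.770 FPKM in treated buds of 1 dat. At 3 dat it stood at 1.89, 0.698 and 0.758 FPKM in control and 2.72, 5.57 and 2.47 FPKM in treated buds (1.34 ± 0.42, SE, limma adjusted p = 0.129), and at 6 dat at 0.440, 0.536 and 1.64 FPKM and 5.44, 13.4 and 13.3 FPKM. From day 0 to 3 dat control buds fell by 2.28 (limma adjusted p = 0.011). The pathogenesis-related protein PR-4-like transcript TR10011|c1_g1_i2 is of a family of chitin-binding proteins. It was higher in treated buds at 1 and 3 dat as well as at 6 dat, where the rule required it. In treated against control buds it stood at 122, 121 and 128 FPKM against 70.1, 70.1 and 80.1 FPKM at 1 dat. At 3 dat it stood at 87.8, 97.7 and 76.4 FPKM against 66.6, 52.4 and 57.2 FPKM, and at 6 dat at 234, 157 and 160 FPKM against 35.4, 47.1 and 39.2 FPKM. Its difference at 3 dat was 0.57 ± 0.13 (SE, limma adjusted p = 0.0555).

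Protease inhibitors made up 4 members. The only one called at 3 dat, the miraculin-like TR6616|c1_g2_i1 (1.24 ± 0.27, SE, limma adjusted p = 0.0488), lost its call when trees were blocked (adjusted p = 0.0924), and it stood at 26.9, 32.4 and 34.9 FPKM in treated and 7.09, 6.55 and 5.23 FPKM in control buds of 6 dat. Another miraculin-like transcript, TR6616|c1_g1_i1, of the Kunitz inhibitor type, stood at 28.1, 11.8 and 4.99 FPKM in treated and 0.732, 0.893 and 0.442 FPKM in control buds of 6 dat, with all libraries of day 0 and 1 dat below 1 FPKM. The glu S.griseus protease inhibitor-like transcripts, of the potato inhibitor I family, reached 19.3, 17.9 and 15.7 FPKM (TR8838|c0_g1_i1) and 5.1, 19.9 and 40.8 FPKM (TR33646|c5_g5_i1) in treated buds of 6 dat, against 1.72, 1.36 and 1.43 FPKM and 0.881, 0.747 and 4.11 FPKM. None of the other 3 was called at 3 dat (limma adjusted p = 0.346, 0.0523 and 0.118). The order of the trees differed among them, tree 4 being highest for the miraculin-like transcript and tree 6 for TR33646|c5_g5_i1.

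Receptor kinases and receptor-like proteins gave 7 members of low level, named here after their values were seen. Their means in treated buds of 6 dat ran from 5.01 to 12.6 FPKM. All 7 were within 1 of day 0 in control buds of 6 dat, so that by the rule they were higher by 1 or more in treated buds. At 3 dat 6 of the 7 lay above control buds without overlap, beside 58.9% of all members and 13.7% of all transcripts tested. Of the 6 tested, 2 were called, beside 31.5% of all members tested. They were receptor-like protein 2 (TR6942|c0_g1_i1, 1.90, limma adjusted p = 0.0244) and a receptor-like protein kinase (TR40145|c0_g1_i7, 1.68, limma adjusted p = 0.0322). Neither was called when trees were blocked (adjusted p = 0.0626 and 0.0647) or in any fit that left out a library. Wall-associated kinases, which bind pectin in the wall, were represented by TR9052|c0_g1_i1 with 7.15, 5.24 and 5.30 FPKM in treated and 0.625, 0.802 and 1.33 FPKM in control buds of 6 dat.

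Metabolic enzymes gave 11 members, of which 3 of the 8 tested were called at 3 dat. The patatin-like protein 3 transcript (TR12115|c1_g2_i1), a lipid acyl hydrolase, had the largest difference of all members at 3 dat. It stood at 0.327, 0.169 and 0.240 FPKM in control and 13.9, 15.7 and 9.34 FPKM in treated buds of 3 dat (4.15 ± 0.29, SE, limma adjusted p = 0.00527), and at 1.96, 7.60 and 7.42 FPKM and 42.1, 14.8 and 19.6 FPKM at 6 dat. The GDSL esterase/lipase CPRD49-like transcript (TR34717|c0_g1_i1), of a family that includes cutin-forming enzymes, had its difference at 3 dat already, with 4.74, 9.04 and 3.67 FPKM in treated and 0.741, 1.15 and 1.05 FPKM in control buds (2.01 ± 0.36, SE, limma adjusted p = 0.0281), and 8.12, 6.49 and 6.37 FPKM against 1.06, 1.10 and 1.65 FPKM at 6 dat. UDP-glycosyltransferases, which attach sugars to small molecules, and cytochrome P450 enzymes gave 2 members each.

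UDP-glycosyltransferase 85A7-like (TR30700|c0_g1_i1) was late in the strict sense. It was at 0.630, 0.889 and 0.347 FPKM in control and 0.230, 0.345 and 0.462 FPKM in treated buds of 3 dat, too low to be tested, and at 0.252, 0.910 and 2.40 FPKM in control and 4.61, 14.8 and 16.5 FPKM in treated buds of 6 dat. Cytochrome P450 704B1 (TR9254|c1_g1_i1) belongs to an enzyme that in Arabidopsis hydroxylates fatty acids for the pollen wall. It stood at 4.88, 9.70 and 2.85 FPKM in treated buds of 6 dat and at or below 0.732 FPKM in all other libraries. Cytochrome P450 71A25-like (TR26711|c0_g1_i1) went from 0.432, 0.264 and 0.105 FPKM in control and 1.77, 1.54 and 1.68 FPKM in treated buds of 3 dat (1.52 ± 0.35, SE, limma adjusted p = 0.0546) to 0.790, 0.854 and 0.744 FPKM and 5.98, 4.96 and 10.1 FPKM at 6 dat. Malate synthase (TR8774|c0_g1_i1, named after its values were seen), of the glyoxylate cycle that turns fatty acids into sugars, was at 15.3, 8.93 and 7.61 FPKM in treated and 0.831, 1.06 and 1.17 FPKM in control buds of 6 dat.

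Proteins of signalling, transcription and protein turnover gave 10 members, and 2 of the 9 tested were called at 3 dat. The group also holds a ribosomal protein isoform and a protein-folding enzyme. The calls were a calcium sensor, given below, and protease Do-like 9 (TR11251|c1_g1_i2, 2.54, limma adjusted p = 0.0319). The indole-3-acetic acid-induced protein ARG7-like transcript (TR11827|c1_g1_i2), of the small auxin up RNA family, was at or below 0.258 FPKM in every library up to 3 dat, and at 1.73, 1.02 and 2.06 FPKM in control and 21.3, 18.0 and 9.57 FPKM in treated buds of 6 dat. Of the calmodulin-like calcium sensors, CML45 (TR12687|c1_g1_i1, named after its values were seen) was instead high at 3 dat. It stood at 0, 0.565 and 0.426 FPKM in control and 7.02, 8.41 and 4.08 FPKM in treated buds of 3 dat (3.09 ± 0.42, SE, limma adjusted p = 0.0134), and at 10.3, 9.74 and 4.84 FPKM in treated buds of 6 dat. Among the members just inside the limit of 2 at 6 dat was 1 of the 2 F-box/kelch-repeat members (TR35052|c0_g1_i1), subunits of ubiquitin ligases, with 34.0, 22.7 and 35.8 FPKM in treated and 7.47, 6.26 and 7.74 FPKM in control buds.

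The transcript of peptidyl-prolyl cis-trans isomerase FKBP17-2 (TR12998|c1_g3_i1), a protein-folding enzyme of the chloroplast, changed direction. It stood at 0 FPKM in the 3 treated libraries of 1 dat against 1.6, 2.72 and 0.947 FPKM in control buds, and at 6.47, 6.39 and 17.4 FPKM against 0, 1.53 and 1.08 FPKM at 6 dat. The only member with a transcription factor description was an isoform of a MADS-box protein jointless-like gene (TR26614|c7_g3_i13), with 7.20, 5.16 and 12.8 FPKM in treated and 0.0873, 3.29 and 2.18 FPKM in control buds of 6 dat. This isoform was 6.75% of the sum of its 24 isoforms in treated buds, and the sum itself was lower in treated buds (-0.78). The 19 other transcripts of the flower organ identity list summed to 136 to 157 FPKM in treated and 207 to 245 FPKM in control buds of 6 dat, and to 158 to 190 FPKM and 281 to 376 FPKM at 3 dat. These sums ran in the opposite direction to the members, but most of the list did not. At 3 dat, this member included, 1 was called higher and 4 lower of 16 tested (limma), with a median difference of 0.16. Over all transcripts tested, 1.96% were called higher and 1.05% lower. At 6 dat, without the member, it was 0 and 1 of 16, with a median of -0.17. The part of the lower sums in the members' difference was not tested. The sums of the anther and pollen list overlapped between treatments at both days.

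The most abundant members had no description. TR25251|c0_g1_i3 stood at 433, 465 and 443 FPKM in control and 1404, 1145 and 1003 FPKM in treated buds of 3 dat (1.39 ± 0.12, SE, limma adjusted p = 0.00762), and at 687, 593 and 885 FPKM in control and 3677, 3309 and 3973 FPKM in treated buds of 6 dat. TR25251|c1_g2_i1, of the same component, averaged 2522 ± 303 FPKM (SD, n = 3) at 6 dat in treated buds, beside 483 ± 89.0 FPKM in control buds, and had a difference of 1.22 ± 0.12 at 3 dat (SE, limma adjusted p = 0.00781). Both rose in control buds as well, by 1.42 and 1.28 from day 0 to 6 dat, and both were called in every fit that left out a library. TR12534|c7_g3_i1 averaged 310 ± 60.9 FPKM at 6 dat in treated buds, beside 51.0 ± 16.2 FPKM in control buds, in the same component as a ribonucleoprotein A3 member.

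The gene TR26666|c0_g1, described only as an uncharacterized protein, gave 3 of its 6 isoforms to the members and the largest difference of all. Isoform TR26666|c0_g1_i2 stood at 1.02, 2.87 and 1.78 FPKM in control and 18.6, 25.7 and 19.7 FPKM in treated buds of 3 dat (3.25 ± 0.31, SE, limma adjusted p = 0.00781), and at 19.3, 25.2 and 18.9 FPKM in control and 563, 380 and 435 FPKM in treated buds of 6 dat (4.40). Control buds of 6 dat thus held the level that treated buds held at 3 dat. TR26666|c0_g1_i4 was at 77.2 ± 13.4 FPKM against 9.40 ± 2.56 FPKM (SD, n = 3) at 6 dat. Its call at 3 dat was lost when trees were blocked (limma adjusted p = 0.031 without and 0.0804 with it). TR26666|c0_g1_i8 was not called at 3 dat (0.33 ± 0.37, SE, limma adjusted p = 0.681). Further uncharacterized members were among the clearest at 3 dat, namely TR3209|c0_g1_i1 with 1.28, 1.52 and 0.615 FPKM in control and 20.04, 20.1 and 13.7 FPKM in treated buds (3.52 ± 0.29, SE, limma adjusted p = 0.00762), and TR32248|c0_g1_i1 with 3.14, 4.33 and 2.07 FPKM and 56.1, 63.7 and 28.2 FPKM (3.72 ± 0.35, SE, limma adjusted p = 0.00781). TR29333|c0_g1_i1 was also called at 3 dat (3.83 ± 0.48, SE, limma adjusted p = 0.0113). Its levels overlapped between the days, with 17.6, 19.9 and 5.76 FPKM in treated buds of 3 dat and 16.3, 11.9 and 8.67 FPKM at 6 dat. TR3409|c0_g2_i1 was instead listed at 0 FPKM in all libraries of day 0 and 1 dat, and stood at 10.8, 4.88 and 7.13 FPKM in treated and 0, 0.660 and 0.523 FPKM in control buds of 6 dat.

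A different time course was seen in 6 members. They were picked, after values were seen, by the limit of 10 times in the control library of tree 6 at 1 dat. Of these, 5 had no description and 1 (TR13056|c6_g1_i5) was described as a protein-S-isoprenylcysteine O-methyltransferase, which methylates prenylated proteins. Their summed level was 0.205 to 2.79 FPKM at day 0, 0.782 to 2.41 FPKM in treated buds of 1 dat and 3.09 to 6.87 FPKM in treated buds of 3 dat. It was 969, 1293 and 852 FPKM in treated buds of 6 dat. Control buds of 1 dat were at 0.916 and 0.307 FPKM in trees 4 and 5 but at 194 FPKM in tree 6, and control buds of 6 dat at 10.1, 140 and 649 FPKM. Control buds of 3 dat were at 0.540, 4.41 and 14.9 FPKM. Tree 6 was thus the highest control library at each day, whereas treated buds of tree 6 were the lowest at 3 and 6 dat.

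**Figure D4:**
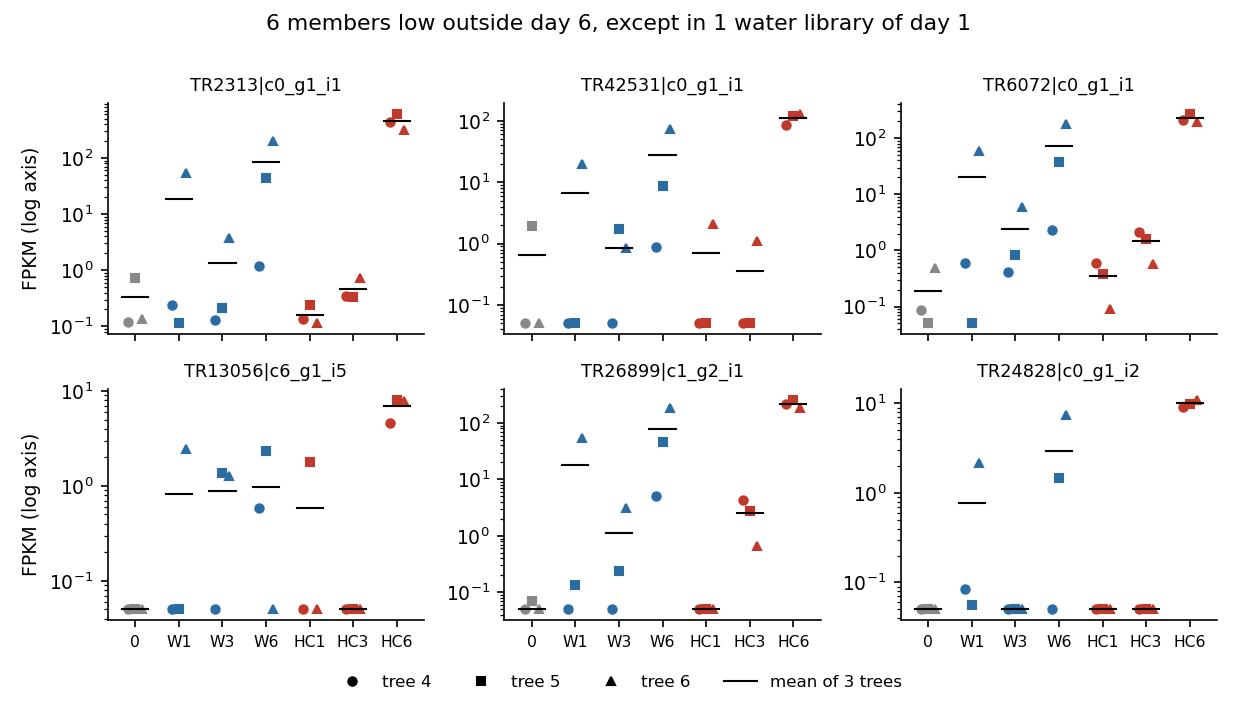
FPKM (log axis) of the 6 members in untreated (0), control (W) and hydrogen cyanamide-treated (HC) buds, with a symbol for each tree and a bar for the mean of 3 trees. Values under 0.05 FPKM are drawn at 0.05. All 6 are high in the 3 treated libraries of 6 dat. They were picked for standing far above the other control libraries of 1 dat in that of tree 6.

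TR2313|c0_g1_i1 shows the pattern in 1 transcript, and it had the second largest difference at 6 dat of all members (4.16). It stood at 0.243, 0.113 and 55.2 FPKM in control buds of 1 dat, at 0.131, 0.214 and 3.68 FPKM in control and 0.346, 0.332 and 0.723 FPKM in treated buds of 3 dat, and at 1.19, 44.2 and 205 FPKM in control and 447, 619 and 318 FPKM in treated buds of 6 dat. Its difference at 6 dat was 8.05 in tree 4 but 0.63 in tree 6. In the same library of tree 6 at 1 dat, TR6072|c0_g1_i1 stood at 60.0 FPKM and TR26899|c1_g2_i1 at 54.7 FPKM. The anther and pollen list summed to 1.02 FPKM in that library, against 9.53 and 0.796 FPKM in trees 4 and 5. At 3 dat 4 of the 6 could be tested and 0 were called (limma adjusted p = 0.453 to 0.949, and at an unadjusted p of at most 0.05 also 0).

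The members also differed between trees as a whole. The median difference at 6 dat was 3.07 in tree 4, 2.24 in tree 5 and 2.28 in tree 6, and the highest treated library of 6 dat was tree 4 in 78 members, tree 5 in 23 and tree 6 in 40. At 3 dat the medians were 1.41, 1.47 and 0.93. In 24 members the difference at 6 dat was under 1 in at least 1 tree, although the group means differed by 2 or more. With 1 library per tree and group, a tree effect and the spread between libraries cannot be told apart.

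Many members were 1 of several assembled isoforms, between which the estimation divides reads. For 60 members the assembled gene had 1 transcript. For the 81 others the sum of all isoforms of the gene differed by 2 or more at 6 dat in 35, by 1 to under 2 in 18, by under 1 in 28, and was lower in treated buds in 8. The putative UDP-glucose glucosyltransferase TR13302|c2_g1_i3 is the clearest case. It stood at 5.62, 8.38 and 3.85 FPKM in treated buds of 6 dat and at or below 0.045 FPKM in control buds, so that the member rose by 3.58 while the sum of the 11 isoforms of its gene fell by 1.23. It was 50.2% of the gene in treated and 0.0584% in control buds. The isovaleryl-CoA dehydrogenase isoform TR37886|c4_g3_i14, of leucine breakdown, stood at 16.2, 10.9 and 12.3 FPKM in treated buds and 0, 0.0091 and 4.35 FPKM in control buds of 6 dat (3.65), whereas its gene differed by 0.94. For such members the difference is one of isoforms as estimated.

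**Figure D5:**
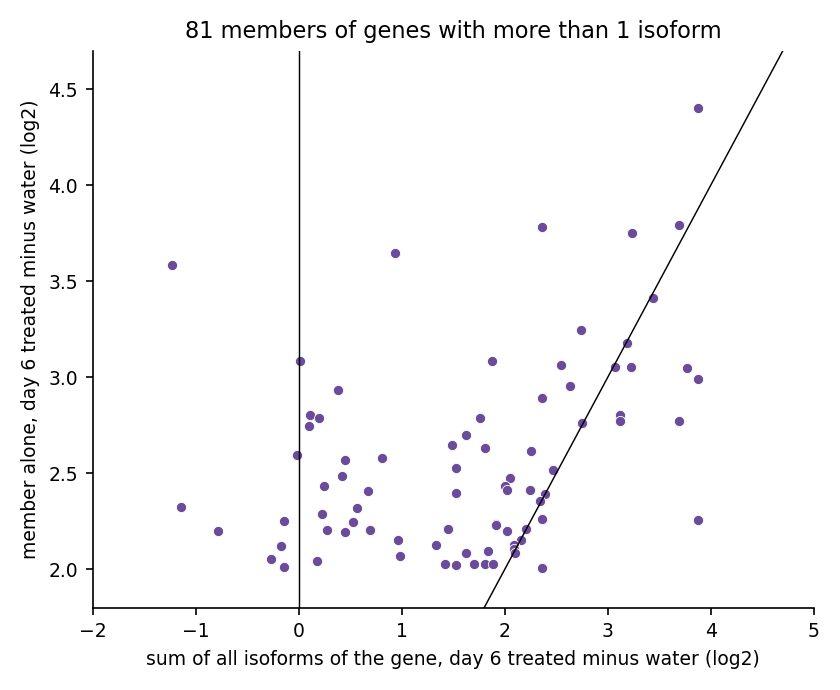
Difference of treated minus control buds at 6 dat on the log2(FPKM + 0.5) scale for the 81 members with other isoforms, of the member alone (vertical) and of the sum of all isoforms of its gene (horizontal), with the line of equal values. Points left of 0 are the 8 members whose gene was lower in treated buds.

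When the rule was applied to sums per assembled gene, 93 genes met it, 83 of them among the 131 genes of the members. The members with 1 transcript, such as the extensin-3-like, P21-like and pathogenesis-related protein 1-like transcripts, do not depend on this choice. Near the limit at 6 dat, the 3 members just inside had differences of 2.01 each (TR8874|c0_g1_i1, described as sericin-2, TR35052|c0_g1_i1 and TR42090|c0_g1_i1). The 3 transcripts just outside had 2.00, 2.00 and 1.99 and included an isoform of peroxisomal (S)-2-hydroxy-acid oxidase GLO1 (TR32365|c0_g3_i11), with 6.85 FPKM in treated and 2.19 FPKM in control buds.

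By description, 9 of 20 gene lists had a member. The cell wall list had 8 members among 101 transcripts, the defence list 7 among 146, the UDP-glycosyltransferases 2 among 133 and the cytochrome P450 enzymes 2 among 84, and the lists for cuticle and lipid, transcription factors, flower organ identity, auxin and cytosolic ribosomal proteins had 1 each. The ribosomal member was an isoform of a 60S ribosomal protein L18a-like gene (TR12609|c2_g1_i12) that was 4.33% of the sum of its gene. There was no member among 132 phenylpropanoid and flavonoid enzymes, 196 transporters and aquaporins, 93 peroxidases and redox enzymes, 77 jasmonate and ethylene genes, 40 heat shock and dormancy-associated proteins or 21 cell cycle genes. The members are 141 of 112043 transcripts, but the lists hold only described ones. The share of members among described transcripts was not computed, so how many such lists would hold is not known. Having none did not mean no change at 6 dat. Called higher and lower (limma) were 20 and 1 of 99 phenylpropanoid and flavonoid enzymes and 19 and 0 of 84 peroxidases and redox enzymes. For jasmonate and ethylene genes it was 8 and 2 of 67, and for transporters and aquaporins 5 and 6 of 133. For the heat shock list it was 0 and 10 of 33, and for cell cycle genes 0 and 0 of 12. The descriptions come mostly from tables of transcripts that the study had selected in these libraries, so the lists are not independent of the treatment.

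Of all 79 cell wall transcripts tested at 3 dat, members included, 30 were called higher and 2 lower, with a median difference of 1.802, and of 110 defence transcripts 34 were higher and 4 lower, with a median of 1.51 (limma, Benjamini-Hochberg). Over all transcripts tested at 3 dat, 1.96% were higher and 1.05% lower and the median was -0.04. Lists with few or no members moved as much. Of the UDP-glycosyltransferases, with 2 members, 61 were higher and 4 lower of 114 tested (median 2.08). For jasmonate and ethylene genes, with no member, it was 34 and 1 of 71 (median 2.07). Peroxidases and redox enzymes had 33 and 2 of 84 (median 1.73), and phenylpropanoid and flavonoid enzymes 33 and 3 of 100 (median 1.63). The heat shock and dormancy-associated list moved the other way, with 2 higher and 16 lower of 35 tested and a median of -1.001.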

How the data were processed

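RNA of 21 flower bud libraries was sequenced by the authors from stranded mRNA libraries. Per the study's methods and processing notes, reads were trimmed with Trimmomatic 0.33, assembled de novo with Trinity and mapped with STAR, whose version is not given in the sources used here, and the deposited FPKM were estimated per transcript with eXpress 1.5.1, which shares reads that fit several isoforms. No genome was used here, so no coordinates are given. The table held no column of unknown sample and no authors' comparisons.

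Members and lists were chosen with earlier results of these data known. Differences are means of log2(FPKM + 0.5), which understates changes of low transcripts. The tests (limma 3.58.1 in R 4.3.3, moderated variances with a trend on the mean level) used only the 6 libraries of each comparison, transcripts averaging 0.5 FPKM or more in them, and Benjamini-Hochberg adjustment over all transcripts tested, with calls where the adjusted p was at most 0.05 and the difference at least 1 in size. The study used EBSeq, a test of counts, which FPKM do not allow. By its methods it used fewer replicates at 1 dat than at 3 and 6 dat, whereas the rule here used all 3 libraries of each group. Per the labels, trees 4, 5 and 6 served each treatment group and the titles carry these numbers, so the fits were repeated with a term for the tree (block). Across transcripts, libraries of 1 tree deviated from their group means with correlations of -0.01 to 0.07. Also tried were a pseudocount of 0.1 or 1 FPKM, leaving the filter off or raising it to 1 FPKM, rescaling by median ratios, no fold threshold, all 21 libraries in 1 fit, isoforms summed, the condition at 1 dat over trees 5 and 6 only, and leaving out each library.

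Descriptions were taken as words from the study's tables, some of which are held in part, and list words that matched by accident (splicing, methylene) were dropped after the descriptions were read. Named members were the 25 described ones with the largest differences at 6 dat, the 5 most abundant, up to 3 per list, the 10 described ones with the lowest p at 3 dat, those next to the limit of 2, and isoforms of a gene that gave 3 members. All others in the text were chosen after their values were seen. Calculations used Python 3.11.15, numpy 2.4.6 and pandas 2.3.3, and figures matplotlib 3.10.9.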

Additional observations from a re-analysis of the deposited data

Results flagged for a closer look

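In 9 members the treated libraries lay on one side of the control libraries at an earlier day and on the other side at 6 dat, without overlap at either day. The side at 6 dat was set by the rule for every member, and its limit of 1 at 1 dat favoured members that were low there. The share of all transcripts below at 1 dat was not computed, so the count has no background at that day. At 1 dat all 3 treated libraries were below all control libraries in 8 of them, by -4.002 (TR21207|c0_g2_i1), -2.10 (FKBP17-2, TR12998|c1_g3_i1), -2.06 (TR10926|c0_g1_i1), -0.92 (TR24828|c0_g1_i2), -0.85 (TR4536|c0_g3_i1), -0.81 (TR12056|c1_g1_i1, probable disease resistance protein), -0.75 (TR4279|c0_g1_i1) and -0.71 (TR34210|c0_g1_i1) on the log2 scale. At 3 dat this held for TR13056|c6_g1_i5 (-1.24), where values were next to 0 in several libraries. Among all transcripts tested at 3 dat, treated libraries lay below control libraries without overlap in 13.2%. The difference between days was not tested, because the rule used the values at 1 and 6 dat. TR21207|c0_g2_i1, which has no description, fell in both treatments at different times. It stood at 26.5, 23.9 and 25.2 FPKM at day 0, at 37.6, 40.8 and 58.8 FPKM in control and 1.73, 1.55 and 4.46 FPKM in treated buds of 1 dat, and at 1.09, 1.71 and 1.17 FPKM in control and 10.8, 11.4 and 12.4 FPKM in treated buds of 6 dat. TR10926|c0_g1_i1 stood at 5.38, 0.0002 and 17.0 FPKM in treated buds of 6 dat, so that its groups were kept apart in tree 5 only by a value next to 0.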

How the results depend on the processing

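The count of members called higher at 3 dat (40) was 13 to 37 when a library was left out, 12 without a filter on low values, 30 with the tree as a block and 37 to 58 under the other alternatives run, and no member was called lower under any of them. Over all transcripts 1238 were higher and 666 lower at 3 dat. These counts were 244 and 99 without a filter, 2110 and 1290 with all 21 libraries in 1 fit, 1898 and 1052 without a fold threshold, and 267 to 1061 and 65 to 536 when a library was left out, and with the replicate block 398 were lower. The members called lower in control buds of 3 dat against day 0 (6) were 3 without a filter and 3 to 5 without a library, and those called lower in treated buds against day 0 (2) were 2 to 4 without a library. The rule gave 132 to 221 members when a library was left out, 221 of them without the control library of tree 6 at 6 dat (131 shared with the 141), 93 genes with isoforms summed, and 131 transcripts with the condition at 1 dat over trees 5 and 6 (127 shared). The median difference of members at 3 dat was 1.64 with a pseudocount of 0.1 FPKM. In each case the cause was not tested, other than the number of libraries or transcripts that enter. Depth was unknown, so differences in members near 0 FPKM rest on few reads that cannot be counted. With 3 libraries per group a call not made does not show that values were alike.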
